A study of Mus musculus with 12 samples.

Results

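The circadian clock genes read in this RNA-seq experiment were Arntl, Per1, Per2, Per3, Ciart, Bhlhe41, Nr1d1, Nr1d2, Dbp and Tef, which are parts of the clock or are driven directly by it. They were chosen by name, as the rows of the deposited count table that carry these symbols, and all 10 were found among 25238 genes. Their levels were compared in 4 libraries labelled ISP, 4 labelled Veh and 4 labelled control, all of peri-infarct cortex, the tissue that borders the dead core of a stroke. ISP mice had a transient occlusion of the middle cerebral artery and received a cell-permeable blocker of the receptor PTPσ, the intracellular sigma peptide (ISP), at 1 μg/g/day from day 1 after stroke until tissue was taken on day 14. Veh mice had the same surgery and schedule with vehicle, 5% DMSO in saline, although the results text of the study names a scrambled peptide for the comparison animals. What surgery or treatment the mice behind the control libraries had, and on what day they were sampled, is not stated in the sources, so these libraries are compared only under their label, and nothing says that each came from a separate mouse. The stroke mice of the study were young adults on a light/dark cycle, either C57BL/6J males or mice of a nestin-CreERT2 reporter line for which both sexes are named, and the methods do not say which strain or sex gave this tissue. The hour of tissue collection is likewise not given, so any difference between groups in these genes and any difference in the hour of collection cannot be told apart.

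The mammalian clock is a transcriptional loop that runs in nearly every cell. ARNTL (also called BMAL1) pairs with CLOCK, binds E-box sequences and switches on the Per and Cry genes, whose proteins then return to the nucleus and repress the pair. A second loop runs through the nuclear receptors NR1D1 and NR1D2 (REV-ERBα and REV-ERBβ), which bind RORE sequences and repress Arntl, and the PAR bZIP factors DBP and TEF carry the rhythm to further genes through D-box sequences. In most mouse tissues Arntl peaks at the opposite end of the daily cycle from Dbp and the Per genes, so that their relative levels in a single sample depend on the hour at which it was taken, and in cortex the Per1 and Per2 genes also respond to neuronal activity.

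Promoter sequence is shown first for 5 of the genes, because it holds the elements named above and because Ciart and Dbp, which moved most closely together across libraries, differ in them. RefSeq promoter windows (GRCm38.p6) of 300 bases, from 250 bases before the transcript start to 50 after it, were matched for 9 of the 10 genes, giving 12 windows. They were searched on both strands for the E-box CACGTG, the D-box TTATGTAA and the RORE core AGGTCA, none of which overlapped another in these windows. An E-box was in 5 of the 12 windows, where 7.15% of 32851 RefSeq windows of this length hold one. Ciart (chr3:95882179-95882478, minus strand) had 3 E-boxes, at 116, 58 and 44 bases before the start, and Bhlhe41 (chr6:145865371-145865670, minus strand) had 1 at 153 bases before it. Single E-boxes were also found for Per1, at 166 bases before the start, and in both windows of Tef, at 127 and 138 bases. The D-box was in 1 window, that of Per3 (chr4:151044616-151044915, minus strand), with copies 205 and 158 bases before the start, against 0.938% of all windows. The RORE core was in 3 windows, those of Per1, Nr1d2 and the second window of Arntl (chr7:113207261-113207560, plus strand), where it lay 32 bases after the start, against 16.3% of all windows. The windows of Dbp (chr7:45704997-45705296, plus strand) and Nr1d1 held none of the 3 letter strings, which says nothing of sites elsewhere in these genes. Below, 5′ to 3′ on the strand of the gene, capitals mark the matched letters.
Ciart: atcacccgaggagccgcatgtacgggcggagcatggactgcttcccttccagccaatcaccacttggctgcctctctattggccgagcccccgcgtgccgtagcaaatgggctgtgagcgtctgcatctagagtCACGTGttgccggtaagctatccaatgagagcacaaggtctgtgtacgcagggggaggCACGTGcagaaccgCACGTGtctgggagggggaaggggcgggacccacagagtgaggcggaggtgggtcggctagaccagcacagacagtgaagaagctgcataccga
Bhlhe41: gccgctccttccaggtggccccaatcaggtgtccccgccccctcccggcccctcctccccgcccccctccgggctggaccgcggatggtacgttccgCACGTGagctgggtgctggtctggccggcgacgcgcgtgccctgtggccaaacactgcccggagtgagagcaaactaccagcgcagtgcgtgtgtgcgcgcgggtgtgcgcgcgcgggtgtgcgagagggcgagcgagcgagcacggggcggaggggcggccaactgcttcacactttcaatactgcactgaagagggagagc
Per3: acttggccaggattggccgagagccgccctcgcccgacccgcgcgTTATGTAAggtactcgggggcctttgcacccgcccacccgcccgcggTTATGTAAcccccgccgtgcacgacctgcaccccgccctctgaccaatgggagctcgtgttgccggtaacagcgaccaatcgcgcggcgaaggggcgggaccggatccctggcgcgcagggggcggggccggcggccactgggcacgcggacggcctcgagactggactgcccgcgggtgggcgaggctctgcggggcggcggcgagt
Arntl: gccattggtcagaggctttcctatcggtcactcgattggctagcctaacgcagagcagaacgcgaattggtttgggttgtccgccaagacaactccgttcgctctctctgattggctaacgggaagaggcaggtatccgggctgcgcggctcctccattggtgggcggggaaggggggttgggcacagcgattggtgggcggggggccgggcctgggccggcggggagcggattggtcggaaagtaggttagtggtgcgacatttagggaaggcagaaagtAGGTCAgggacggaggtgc
Dbp: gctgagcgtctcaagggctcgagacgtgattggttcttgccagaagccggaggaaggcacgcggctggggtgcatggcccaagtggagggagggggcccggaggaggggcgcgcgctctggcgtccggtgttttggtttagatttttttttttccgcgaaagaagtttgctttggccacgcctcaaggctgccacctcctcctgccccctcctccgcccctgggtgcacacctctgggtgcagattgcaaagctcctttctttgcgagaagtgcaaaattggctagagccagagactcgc

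Total counts ranged from 19325979 to 28685864 in ISP libraries, from 17442711 to 24706638 in Veh libraries and from 21322702 to 29845629 in control libraries. The least counted of the 10 genes, Ciart, still had 215 reads or more in every library. Levels are given as CPM, a gene's counts relative to the library total, after a joint TMM scaling of all 12 libraries. Slc17a7, the vesicular glutamate transporter of cortical excitatory neurons, was at 1869 to 2680 CPM in all 12, while the striatal receptor gene Drd2 was at 0.724 to 1.66 CPM. ISP 14 and ISP 18 stood apart in markers of activated microglia and macrophages, whose 8 genes summed to 480.1 and 466.6 CPM there, to 54.8 and 41.9 CPM in ISP 12 and ISP 16, to 36.1 to 115 CPM in Veh libraries and to 28.0 to 37.4 CPM in control libraries. Each comparison was tested by edgeR's quasi-likelihood test on its own 8 libraries, and a gene was called at a Benjamini-Hochberg adjusted p under 0.1. The comparisons share libraries, so that ISP with Veh and Veh with control use the same Veh mice, and the others share likewise.

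Per length of exonic sequence (RPKM), Nr1d1 was the most abundant of the 10 genes in every group, at 92.5 ± 8.46 RPKM in ISP, 114.5 ± 8.67 RPKM in Veh and 86.7 ± 6.49 RPKM in control libraries (SD, n = 4 each). Tef came second, at 42.8 ± 3.12, 40.8 ± 1.39 and 39.2 ± 1.67 RPKM in the same groups, followed by Dbp, at 29.2 ± 10.4, 31.6 ± 3.34 and 22.1 ± 2.38 RPKM. No Nr1d1 library overlapped any Tef library within its group, whereas Tef and Dbp overlapped in ISP and Dbp and Per1 in control. Per1 and Nr1d2 followed and overlapped each other in every group, with means between 14.1 and 19.7 RPKM. Ciart, Bhlhe41, Per2, Arntl and Per3 filled the lower end, with means between 2.93 and 8.25 RPKM, and most neighbours in that order overlapped. In Veh libraries Per2 was the lowest of the 10, at 2.93 ± 0.596 RPKM, with Per3 next at 3.06 ± 0.341 RPKM, while in ISP and control libraries Per3 was the lowest, at 3.39 ± 0.377 and 3.63 ± 0.421 RPKM.

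**Figure D1:**
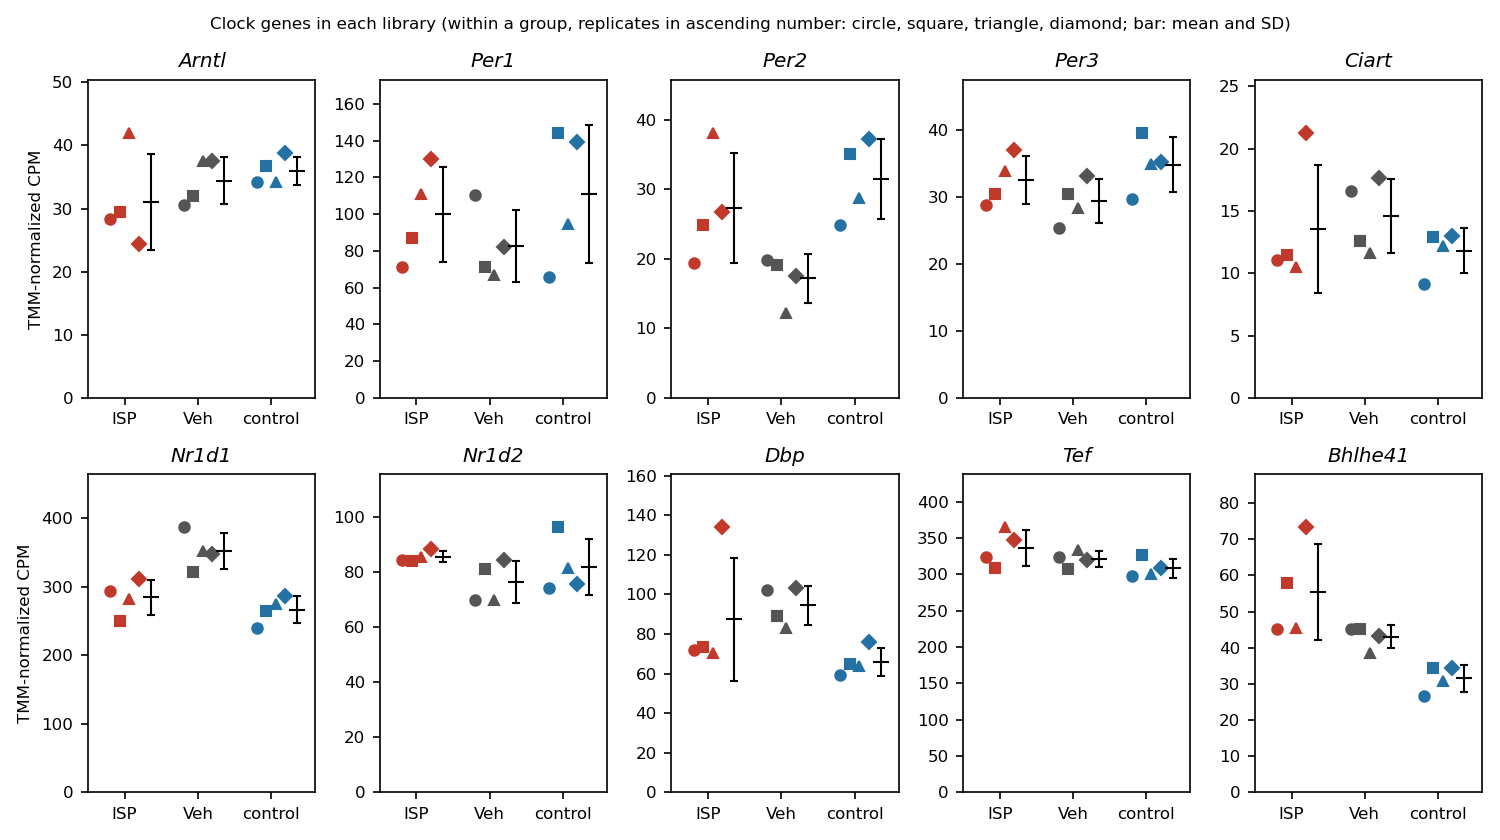
TMM-normalized CPM (vertical axis, linear from 0) of each clock gene in the 4 ISP, 4 Veh and 4 control libraries; points are libraries, with the mean and SD of each group beside them. Bhlhe41 is lowest in the control libraries. The group mean of Dbp is lowest in control, with ISP 12, ISP 14 and ISP 16 inside the control range. The group mean of Per2 is lowest in Veh, with ISP 12 inside the Veh range. Among ISP libraries, 1 library, ISP 18, stands at 133.8 CPM for Dbp and 21.3 CPM for Ciart.

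Arntl, the activating partner of the loop, had 28.4, 29.5, 42.0 and 24.4 CPM in ISP 12, 14, 16 and 18, 30.5, 31.9, 37.6 and 37.6 CPM in Veh 2, 6, 8 and 10, and 34.2, 36.7, 34.2 and 38.8 CPM in control 19, 21, 36 and 38. The ISP libraries held both the highest value of the 12, in ISP 16, and the lowest, in ISP 18, and overlapped both other groups. No comparison of Arntl passed the test. Its log2 fold change was -0.15 (standard error 0.153, adjusted p = 0.661) in ISP against Veh, -0.05 (standard error 0.0986, adjusted p = 0.841) in Veh against control and -0.22 (standard error 0.143, adjusted p = 0.413) in ISP against control, all from edgeR. The last of these was stronger without ISP 16, the library with the most Arntl, at -0.40 with an adjusted p of 0.0365 from edgeR.

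Per2, which encodes a core repressor of the ARNTL and CLOCK pair, was lower in Veh libraries than in control libraries and was the member with the largest difference there. It had 19.4, 24.9, 38.1 and 26.8 CPM in ISP libraries, 19.9, 19.2, 12.2 and 17.5 CPM in Veh libraries, and 24.8, 35.1, 28.8 and 37.3 CPM in control libraries, in the order of libraries given for Arntl. Every Veh library lay below every control library, with Veh 8 the lowest of all, and the ISP libraries spread across both groups. The log2 fold change of Per2 in Veh against control was -0.86 (standard error 0.162), a level 0.549 times that of control, with an adjusted p of 0.0534 from edgeR and 0.000223 from DESeq2. Leaving out 1 library at a time gave log2 fold changes of -0.97 to -0.73 and adjusted p-values from edgeR of 0.0487 to 0.165, which were over 0.1 without Veh 2, control 21, control 36 or control 38. In ISP against Veh the log2 fold change was 0.67 (standard error 0.205), with an adjusted p of 0.263 from edgeR, which did not call it, and 0.0763 from DESeq2, which did. Without ISP 16, the ISP library with the most Per2, that log2 fold change was 0.47. In ISP against control it was -0.21 (standard error 0.186, adjusted p = 0.573 from edgeR), and it ranged from -0.41 without ISP 16 to -0.07 without ISP 12. As all of these are bulk tissue values, fewer cells expressing a gene and less RNA of it per cell cannot be told apart.

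The other Period genes did not pass the test in any comparison. Per1 had 71.5, 87.3, 111.1 and 130.0 CPM in ISP libraries, 110.5, 71.5, 67.2 and 82.1 CPM in Veh libraries, and 65.7, 144.2, 94.7 and 139.4 CPM in control libraries. Control 19 and control 21 were the lowest and the highest of all 12 libraries, so the control group spanned both others. The log2 fold change of Per1 was 0.27 (standard error 0.192, adjusted p = 0.509) in ISP against Veh, -0.41 (standard error 0.216, adjusted p = 0.367) in Veh against control and -0.15 (standard error 0.234, adjusted p = 0.771) in ISP against control, from edgeR. Per3, a less essential Period gene, had 28.8, 30.4, 33.9 and 37.0 CPM in ISP libraries, 25.4, 30.5, 28.4 and 33.1 CPM in Veh libraries, and 29.7, 39.6, 35.0 and 35.2 CPM in control libraries. Its groups overlapped in all 3 comparisons, and its log2 fold changes of 0.15 in ISP against Veh, -0.23 in Veh against control and -0.10 in ISP against control had adjusted p-values of 0.535, 0.322 and 0.663 from edgeR. In the Veh with control comparison all 3 Period genes had negative log2 fold changes, of which only that of Per2 was called by edgeR.

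Immediate early genes, which neurons switch on within minutes of firing, were read beside the Period genes. The summed level of 10 of them was 1068, 613.1, 1327 and 1169 CPM in ISP libraries, 939, 443.4, 790.3 and 816 CPM in Veh libraries, and 917.6, 1624, 1107 and 1981 CPM in control libraries. Control 21 and control 38, the libraries with the most Per1, also had the highest of these sums, and all 12 had each of the 10 genes above 0. In Veh against control edgeR called 1 of the 10, beside 2.23% of all tested genes. It was Arc, which encodes a synaptic protein and was lower in Veh (log2 fold change -1.59, standard error 0.349, adjusted p = 0.0746 from edgeR). The median log2 fold change of the 10 was -0.57, beside 0.02 over all tested genes, and in ISP against Veh it was 0.26 with 0 of 10 called by edgeR. Of 8 genes that respond to glucocorticoids, a hormone signal that also reaches Per1, 0 were called in either of these comparisons by edgeR, with 2 of 8 at an unadjusted p under 0.05 in Veh against control, beside 16.3% of all tested genes, and 4 of 8 in ISP against Veh, beside 15.3%. DESeq2 called 1 of the 8 in each, Tsc22d3 in Veh against control (log2 fold change -0.39 and adjusted p = 0.0319) and Errfi1, named after its values were seen, in ISP against Veh (0.47 and adjusted p = 0.0457). The shares of all genes that DESeq2 called were 7.65% and 2.77% in the same order. The part of neuronal activity or of glucocorticoids in the Period gene values was not tested.

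Ciart, also called Chrono, encodes a repressor that binds ARNTL. It had 11.1, 11.5, 10.5 and 21.3 CPM in ISP libraries, 16.6, 12.6, 11.6 and 17.6 CPM in Veh libraries, and 9.12, 12.9, 12.2 and 13 CPM in control libraries. ISP 18 was the highest of all 12 libraries and lay apart from the other ISP libraries, which kept within 10.5 to 11.5 CPM. No comparison of Ciart passed the test. In ISP against Veh the log2 fold change was -0.10 (standard error 0.236, adjusted p = 0.868 from edgeR) with all libraries and -0.41 without ISP 18. In ISP against control it was 0.21 (standard error 0.225, adjusted p = 0.645 from edgeR) with all libraries and -0.10 without ISP 18. In Veh against control it was 0.32 (standard error 0.166, adjusted p = 0.368 from edgeR), with the groups overlapping.

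Bhlhe41, which encodes DEC2, a repressor that competes for E-boxes, was higher than control in both sets of stroke libraries. It had 45.1, 57.9, 45.3 and 73.3 CPM in ISP libraries, 45.1, 45.2, 38.6 and 43.3 CPM in Veh libraries, and 26.7, 34.5, 30.7 and 34.3 CPM in control libraries. The 4 control libraries were the 4 lowest of the 12, and ISP 18 and ISP 14 were the 2 highest. In ISP against control the log2 fold change was 0.82 (standard error 0.154), a level 1.76 times that of control, with an adjusted p of 0.0232 from edgeR. It stayed called without each library in turn, at log2 fold changes of 0.65 to 0.90 and adjusted p-values of 0.00479 to 0.0791, and was 0.52 with an adjusted p of 0.138 without both ISP 14 and ISP 18. The Veh libraries differed from control by a log2 fold change of 0.46 (standard error 0.101), a level 1.37 times that of control, with an adjusted p of 0.0746 from edgeR and 0.00418 from DESeq2. Leaving out 1 library at a time gave adjusted p-values from edgeR of 0.0831 to 0.196 for it, over 0.1 without Veh 2, Veh 10, control 21, control 36 or control 38. In ISP against Veh it was 0.37 (standard error 0.146, adjusted p = 0.286 from edgeR), with the ISP and Veh libraries overlapping, and it was 0.20 without ISP 18 and 0.07 without both ISP 14 and ISP 18. Bhlhe41 shares 1280 of its 6720 exonic bases (19.0%) with Gm43909, a predicted transcript on the opposite strand that was not analysed here, and the library chemistry keeps no strand.

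Glial markers were read beside Bhlhe41, since ISP 14 and ISP 18 stand high in several of them. The 6 homeostatic microglia markers summed to 410.8, 955.6, 375.2 and 914.9 CPM in ISP 12, 14, 16 and 18, to 332.2 to 517.6 CPM in Veh libraries and to 266.4 to 293.1 CPM in control libraries. By edgeR, 5 of these 6 were called higher in ISP against control and 3 of 6 in Veh against control. Over all tested genes edgeR called 6.74% and 1.03% higher in these comparisons. Reactive astrocyte markers summed to 620.3, 1722, 356.4 and 2915 CPM in ISP 12, 14, 16 and 18, to 168.7 to 763.5 CPM in Veh libraries and to 64.0 to 73.5 CPM in control libraries. All 5 tested genes of that list of 6 were called higher in ISP against control and 3 of 5 in Veh against control, with Lcn2 at 0 counts in the 4 control libraries. Oligodendrocyte markers summed to 4677 to 11209.2 CPM in ISP libraries, to 2792 to 6953 CPM in Veh libraries and to 3262 to 4921 CPM in control libraries, with the highest sum in ISP 18, while ISP 14, at 6627 CPM, lay below ISP 12 and Veh 6. Of these 6 genes, 5 were called higher in ISP against control and 0 in Veh against control. Activated microglia and macrophage markers had 6 of 6 tested genes of 8 called higher in ISP against control and 0 of 5 tested in Veh against control by edgeR, and 3 of the 8, Lgals3 among them, were at 0 counts in control 36 and control 38. DESeq2 called Cd68 and Trem2 of this list higher in Veh against control. Their adjusted p-values were 0.019 and 0.012 from DESeq2 and 0.113 and 0.108 from edgeR. Homeostatic microglia, activated microglia and reactive astrocyte sums were highest in ISP 14 and ISP 18, as was Bhlhe41. Those sums were higher in Veh 10 than in ISP 12 and ISP 16. Bhlhe41 was at 43.3 CPM in Veh 10 and at 45.1 and 45.3 CPM in ISP 12 and ISP 16. The part of these cell types in the Bhlhe41 difference was not tested.

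Nr1d1, the more abundant of the REV-ERB repressors, was higher in Veh libraries than in control libraries. It had 294.5, 249.8, 282.7 and 311.4 CPM in ISP libraries, 386.8, 321.9, 352.9 and 348.0 CPM in Veh libraries, and 240.2, 264.3, 275.2 and 287.0 CPM in control libraries. The 4 Veh libraries were the 4 highest of the 12, while ISP and control libraries overlapped. Set against control, the log2 fold change in Veh libraries was 0.41 (standard error 0.0777), a level 1.33 times that of control, with an adjusted p of 0.0537 from edgeR and 0.000349 from DESeq2. Its adjusted p was 0.0574 to 0.165 with 1 library left out, over 0.1 without Veh 2, control 21 or control 36, and once trends with base composition and transcript length were removed the log2 fold change was 0.27 with an adjusted p of 0.113. In ISP against Veh it was -0.31 (standard error 0.0861), with an adjusted p of 0.262 from edgeR and 0.0531 from DESeq2, so that DESeq2 alone called Nr1d1 lower in ISP. In ISP against control it was 0.09 (standard error 0.0855, adjusted p = 0.58 from edgeR). Of the 3077 exonic bases of Nr1d1, 263 (8.55%) are shared with Thra on the opposite strand. The strand of a read from that stretch does not show its gene of origin, and how counting treated such reads was not examined. Thra, a thyroid hormone receptor, was itself higher in Veh than in control, by edgeR (log2 fold change 0.33, standard error 0.0714, adjusted p = 0.0746).

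Nr1d2, the second REV-ERB gene, did not follow Nr1d1. It had 84.4, 84.2, 85.5 and 88.3 CPM in ISP libraries, 69.8, 81.2, 69.9 and 84.4 CPM in Veh libraries, and 74.2, 96.2, 81.6 and 75.5 CPM in control libraries. The ISP libraries lay within 84.2 to 88.3 CPM and inside the control range, and Veh 2 and Veh 8 were the lowest. Its log2 fold change was 0.17 (standard error 0.0812, adjusted p = 0.356) in ISP against Veh, -0.09 (standard error 0.0991, adjusted p = 0.715) in Veh against control and 0.06 (standard error 0.0881, adjusted p = 0.735) in ISP against control, from edgeR. The difference between the paralogs was not tested.

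Dbp, an output factor with a wide daily swing in most tissues, was higher in Veh libraries than in control libraries. It had 72.1, 73.2, 70.5 and 133.8 CPM in ISP libraries, 102.4, 89.2, 83.0 and 103.3 CPM in Veh libraries, and 59.5, 64.6, 63.9 and 76.2 CPM in control libraries. Every Veh library lay above every control library. ISP 12, ISP 14 and ISP 16 lay within the control range and ISP 18 above every other library. The log2 fold change of Dbp in Veh against control was 0.53 (standard error 0.0985), a level 1.44 times that of control, with an adjusted p of 0.0534 from edgeR and 0.000390 from DESeq2. With 1 library left out it was 0.47 to 0.60, with adjusted p-values of 0.0535 to 0.165 that were over 0.1 without Veh 2, control 21 or control 36. In ISP against Veh it was -0.11 (standard error 0.192, adjusted p = 0.811 from edgeR) and -0.39 without ISP 18. In ISP against control it was 0.41 (standard error 0.189, adjusted p = 0.229 from edgeR) and 0.12 without ISP 18. Dbp shares 539 of its 2993 exonic bases (18.0%) with Sphk2 on the opposite strand, whose own log2 fold change in Veh against control was 0.13 with an adjusted p of 0.497 from edgeR.

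Tef, a PAR bZIP factor that binds the same D-boxes as DBP, was the steadiest of the 10 genes, with the highest library at 1.23 times the lowest. It had 324.5, 308.9, 364.5 and 347.3 CPM in ISP libraries, 323.3, 306.7, 333.2 and 320.2 CPM in Veh libraries, and 297.5, 326.7, 300.3 and 308.6 CPM in control libraries. The groups overlapped in every comparison, and log2 fold changes were 0.07 in ISP against Veh, 0.07 in Veh against control and 0.12 in ISP against control, with adjusted p-values of 0.679, 0.646 and 0.348 from edgeR.

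**Figure D2:**
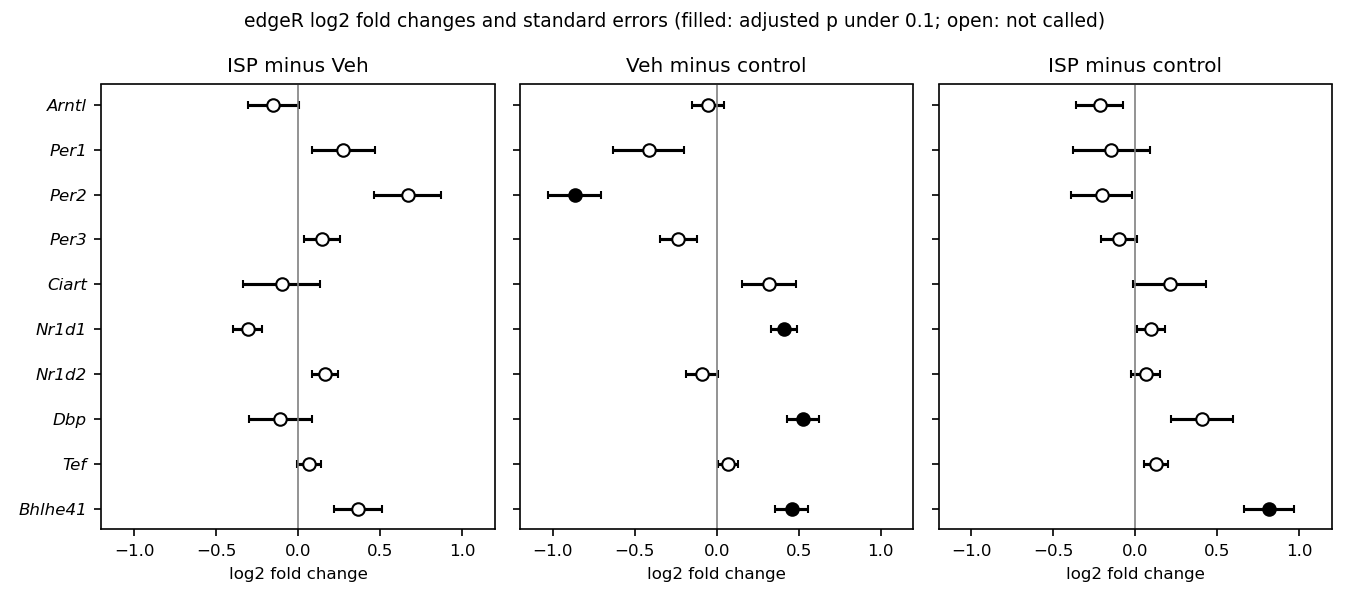
Log2 fold changes from edgeR (horizontal axis) with standard errors as bars, for each clock gene in ISP minus Veh, Veh minus control and ISP minus control; filled points have an adjusted p under 0.1. Per2, Nr1d1, Dbp and Bhlhe41 are filled in Veh minus control and Bhlhe41 alone in ISP minus control, with none filled in ISP minus Veh.

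Counted together, 0 of the 10 clock genes were called in ISP against Veh by edgeR, which called 0% of all 15214 tested genes. At an unadjusted p under 0.05 were 3 of the 10 (Per2, Nr1d1 and Bhlhe41), beside 15.3% of all tested genes, and 1 of 10 (Nr1d1) had groups that did not overlap, beside 6.78%. DESeq2 called 2 of the 10 in this comparison, Per2 and Nr1d1, beside 2.77% of 14608 genes, and limma-voom called 0. In Veh against control edgeR called 4 of the 10, beside 2.23% of 15126 genes. Of these, 3 were higher in Veh (Nr1d1, Dbp and Bhlhe41), beside 1.03% of genes called higher, and 1 was lower (Per2), beside 1.2% called lower. The same 4 were the genes whose Veh and control libraries did not overlap, beside 9.66% of all tested genes. In ISP against control 1 of the 10 was called, Bhlhe41, which was higher in ISP, beside 10.2% of 15232 genes called in either direction and 6.74% called higher. It was also the 1 gene of the 10 whose ISP and control libraries did not overlap, beside 11.9% of all tested genes. The median log2 fold change of the 10 was 0.11 in ISP against Veh, 0.01 in Veh against control and 0.08 in ISP against control, where the medians of all tested genes were 0.02, 0.02 and -0.01. The count in Veh against control was 0 without Veh 2, control 21 or control 36, 2 without control 38, 0 at an adjusted p of 0.05 and 0 when all 12 libraries were fitted together, and DESeq2, limma-voom and a fit with no filter gave 4, with DESeq2 calling 7.65% of all genes. Over all genes that comparison had 337 calls, with 6 without Veh 2, 0 without control 21 and 6 without control 36, where 3 libraries remain in 1 group. The log2 fold changes of the 4 called clock genes kept their direction there.

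Beyond these 10, 28 further genes of the clock machinery and its known outputs were listed, of which 26 had enough reads to be tested. In ISP against Veh 0 of the 26 were called by edgeR, with 2 at an unadjusted p under 0.05, beside 15.3% of all tested genes, and in ISP against control 0 of the 26, with 4 at that level, beside 22.3%. Of the 26, 2 were called in Veh against control, beside 2.23% of all tested genes. Usp2, a ubiquitin protease under clock control, was higher in Veh, with 70.5, 56.9, 57.2 and 77.9 CPM in ISP libraries, 78.5, 76.3, 92.3 and 85.0 CPM in Veh libraries and 66.8, 63.8, 71.4 and 61.9 CPM in control libraries. Its Veh libraries were all above its control libraries, and the log2 fold change was 0.34 (standard error 0.0844, adjusted p = 0.0928 from edgeR). Wee1, a cell cycle kinase with E-boxes in its promoter, was lower in Veh, with 24.1, 21.4, 26.3 and 22.2 CPM in ISP libraries, 22.9, 22.7, 22.6 and 19.9 CPM in Veh libraries and 29.8, 31.4, 27.5 and 26.0 CPM in control libraries. The Veh libraries were again clear of the control libraries, by edgeR at -0.37 on the log2 scale (standard error 0.0940, adjusted p = 0.0945).

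The partners and paralogs of the 10 genes were among those not called. Clock, the partner of ARNTL, differed by -0.29 on the log2 scale (standard error 0.0974) in Veh against control, with an adjusted p of 0.172 from edgeR and 0.0877 from DESeq2, and 0.15 in ISP against Veh. Npas2, which can replace CLOCK in the forebrain, had -0.03 in Veh against control and 0.04 in ISP against Veh. Cry1, a cryptochrome repressor, had 14.1, 13.4, 16.2 and 14.3 CPM in ISP libraries and 13.2, 11, 10.8 and 9.85 CPM in Veh libraries. These groups did not overlap, and the log2 fold change of 0.37 (standard error 0.131) had an adjusted p of 0.274 from edgeR. Cry2 had -0.05 in Veh against control and 0.04 in ISP against Veh, Hlf, another PAR bZIP factor, 0.04 and 0.19, and Bhlhe40, the paralog of Bhlhe41, -0.10 and 0.14. Rora, which activates through the RORE that the REV-ERBs repress, had -0.28 in Veh against control, with an adjusted p of 0.276 from edgeR. Of the 9 kinases and degradation factors of clock proteins, 0 were called by edgeR in any comparison, and DESeq2 gave Gsk3b an adjusted p of 0.0413 in Veh against control.

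The pattern of the 10 genes differed from library to library within groups. ISP 18 had the highest Dbp, Ciart and Bhlhe41 and the lowest Arntl of all 12 libraries, and ISP 16 had the highest Per2, Arntl and Tef. Control 19 was the lowest of the 12 for 6 genes (Per1, Dbp, Nr1d1, Ciart, Tef and Bhlhe41), and control 21 the highest for Per1, Per3 and Nr1d2. Veh 2 had the highest Nr1d1 with the lowest Per3 and Nr1d2, and Veh 8 had the lowest Per2.

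**Figure D3:**
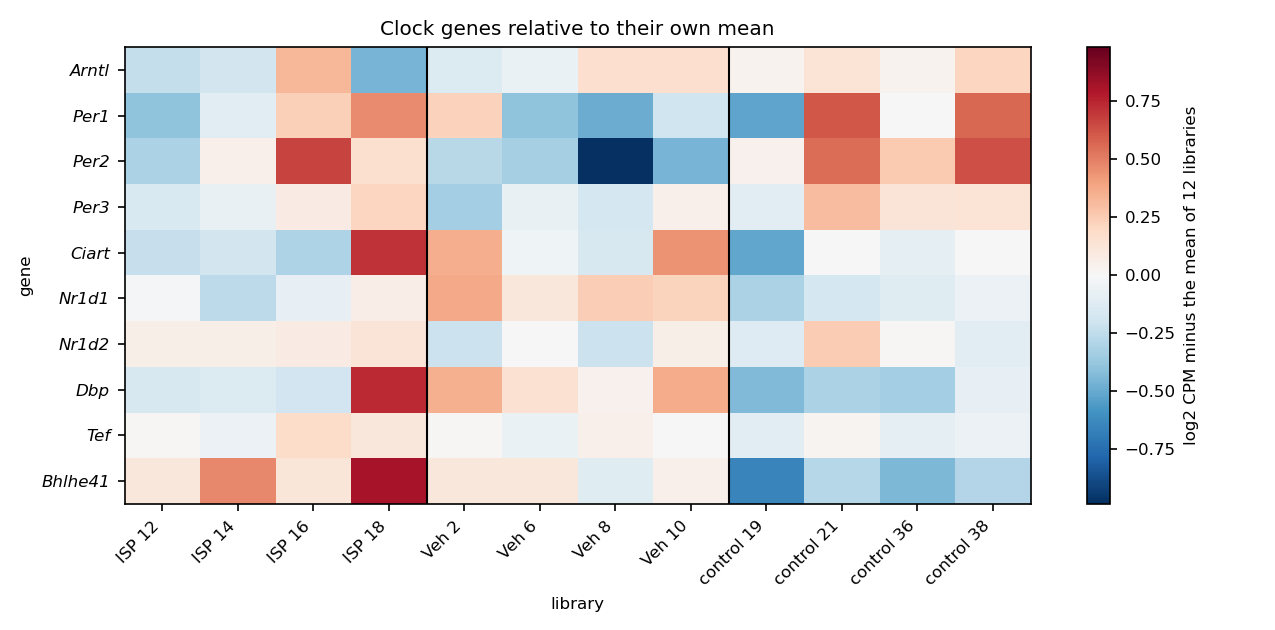
Each clock gene (rows) in each library (columns, grouped as ISP, Veh and control) as log2 CPM minus the mean of the 12 libraries, red above and blue below it. Dbp, Ciart and Bhlhe41 are reddest in ISP 18, where Arntl is blue, and Per2 is bluest in Veh 8.

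Ratios within a library do not depend on how the libraries are scaled, so Dbp was also set against Arntl, which peaks at the opposite hours, and against Per2. The log2 ratio of Dbp to Arntl, in CPM, was 1.34, 1.31, 0.75 and 2.46 in ISP 12, 14, 16 and 18, 1.75, 1.48, 1.14 and 1.46 in Veh 2, 6, 8 and 10, and 0.80, 0.82, 0.90 and 0.97 in control 19, 21, 36 and 38. Every Veh library lay above every control library, while the ISP libraries reached from the lowest of the 12, in ISP 16, to the highest, in ISP 18. Control libraries spanned 0.80 to 0.97 and Veh libraries 1.14 to 1.75, against 0.75 to 2.46 in ISP libraries. The log2 ratio of Dbp to Per2 was 1.89, 1.55, 0.89 and 2.32 in ISP libraries, 2.37, 2.22, 2.77 and 2.56 in Veh libraries, and 1.26, 0.88, 1.15 and 1.03 in control libraries. Here too the Veh and control libraries were apart, with ISP 18 among the Veh values, ISP 16 among the control values and ISP 12 and ISP 14 between them. These ratios restate genes already tested and carry no test of their own. Whether the spread among ISP libraries goes with their hours of collection was not tested, since no hour is given in the sources used here.

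**Figure D4:**
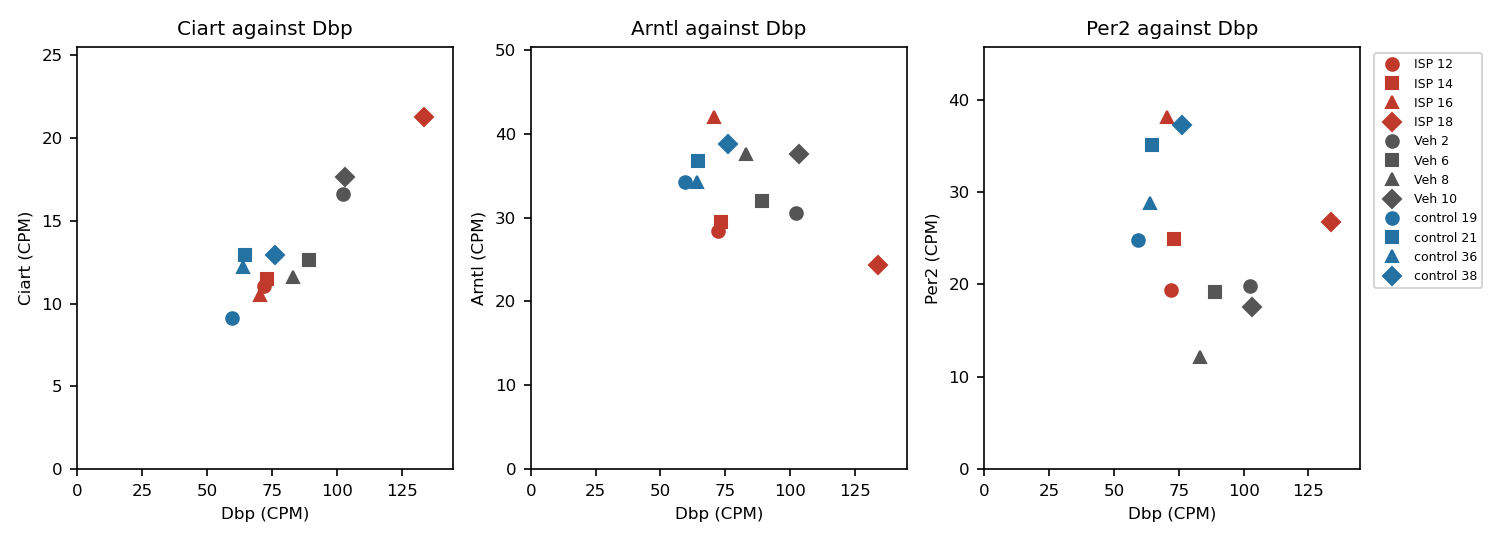
Ciart, Arntl and Per2 (vertical axes, CPM) against Dbp (horizontal axes, CPM), with 1 point for each of 12 libraries; red is ISP, grey Veh and blue control. Ciart climbs with Dbp through all groups up to ISP 18 at 133.8 and 21.3 CPM, whereas the Veh libraries sit low for Per2, at 12.2 to 19.9 CPM.

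Likeness of pattern was measured as the correlation of log2 CPM over the 12 libraries after each group's mean was subtracted, and is given as a description, since these libraries share a depth scaling and a tissue dissection. Among 15542 other genes, Ciart was the one most like Dbp, with a Pearson r of 0.94 and a Spearman rho of 0.85. Without ISP 18 the Pearson r was 0.86 and Ciart ranked 10th of the 15542. Bhlhe41 ranked 37th with a Pearson r of 0.84, which was 0.59 and rank 446 without ISP 18. The remaining members were less like Dbp, with Per1 at 0.61, Nr1d1 at 0.60, Per2 at 0.24 and Arntl at -0.51. Without ISP 18 these values were 0.66, 0.51, 0.51 and 0.01 in the same order, so that Per1, at rank 243, came above Bhlhe41. Predicted genes aside, those that followed Ciart included Zfp558 at 0.91, Swsap1 at 0.91 and Rgs12, a regulator of G protein signaling, at 0.90.

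At the opposite end from Dbp were Dnaja1, a heat shock co-chaperone, with a Pearson r of -0.96, Zc3h15 at -0.95, Vamp4 at -0.94, Tmem150cos at -0.93 and Cct6a, a subunit of the chaperonin that folds actin and tubulin, at -0.93. For Arntl the highest values were those of Slc12a5, the neuronal potassium chloride cotransporter, at 0.96, Peg10 at 0.95, Gga3 at 0.93, Smim10l1 at 0.93 and Chrd at 0.92. The lowest were Nfatc2 at -0.93, Septin1 at -0.92, Dbndd2 at -0.92, Nkx6-2, a transcription factor of oligodendrocytes, at -0.92 and Cirbp at -0.91. All of these, for Dbp and for Arntl, are extremes picked from 15542 genes over all 12 libraries. Their values without ISP 18 are not given here. Cirbp encodes a cold-inducible RNA-binding protein, whose level rises when temperature falls. It had 67.4, 53.4, 39.9 and 69.2 CPM in ISP libraries, 87.6, 74.4, 64.2 and 66.1 CPM in Veh libraries, and 50.4, 48.4, 53.1 and 52.6 CPM in control libraries. Cirbp was higher in Veh than in control by edgeR (log2 fold change 0.52, standard error 0.0979, adjusted p = 0.0534). It was the 1 gene called there of a list of 7 temperature-linked genes, beside 2.23% of all tested genes. The 7 genes of that list summed to 1637, 1592, 1802 and 1351 CPM in ISP 12, 14, 16 and 18, to 1458 to 1558 CPM in Veh libraries and to 1542 to 1607 CPM in control libraries, with the highest of the 12 in ISP 16 and the lowest in ISP 18. Most of the sum is 1 heat shock gene, Hsp90aa1, at 1154 CPM in ISP 16 and 852.7 CPM in ISP 18. The sum adds the RNA-binding genes Cirbp and Rbm3 to heat shock genes, which differed in direction between ISP 16 and ISP 18. Rbm3 was at 53.8 CPM in ISP 16 and 96.3 CPM in ISP 18, and the heat shock gene Hspa1a at 12.1 and 6.33 CPM. The part of temperature in the clock gene values was not tested.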

How the data were processed

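Each library of peri-infarct cortex was poly(A)-selected and sequenced, the reads were mapped to mm10 by the authors (HISAT2) and gene counts came from HTSeq run with its defaults; tool versions are not given in the sources used here. Deposited values are raw counts, 1 integer per gene and library. Members and gene lists were chosen with earlier results of these data known, so no list was tested. Comparisons were fitted in R 4.3.3 with edgeR 4.0.16 (filterByExpr, TMM, glmQLFit and glmQLFTest) on their own libraries, with Benjamini-Hochberg adjustment over all tested genes and a threshold of 0.1, the adjusted p of the study's methods. The 10 members passed the filter in every comparison. Values per library are TMM-normalized CPM, and RPKM use GENCODE M21 exonic lengths; 24365 symbols matched directly and 353 through RefSeq synonyms. Alternatives were DESeq2 1.42.0, its size factors, limma 3.58.1 (voom), other filters, GC and length offsets, an adjusted p of 0.05, all 12 libraries in 1 fit, each library left out, and ISP 14 and ISP 18 both left out. Genes named were all members, tested clock-list genes, up to 4 of each other list, and the 5 most and 5 least like Dbp or Arntl, leaving out predicted genes; 1 gene that this rule takes is not reported here. Fits were tested on simulated data. The 18 within-group pairs of libraries had a chi-square per degree of freedom of 11.1 to 50.1, so none repeats another. P-values set each difference between groups against the spread between libraries within groups. For the control libraries, whether that is a spread between separate mice is not stated.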

Additional observations from a re-analysis of the deposited data

Results flagged for a closer look

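In 33 groups of 4 libraries examined (each of the 10 genes and the Dbp to Arntl ratio in ISP, Veh and control), 2 values stood apart from their group by Dixon's gap criterion, which chance alone meets in about 1 group in 20. Dbp in ISP 18 was at 133.8 CPM, where the other ISP libraries were at 70.5 to 73.2 CPM, a gap of 0.956 of the group's range. Ciart in the same library was at 21.3 CPM, where the other ISP libraries were at 10.5 to 11.5 CPM, a gap of 0.912 of the range. ISP 18 also had the highest oligodendrocyte, reactive astrocyte and striatal neuron marker sums of the 12, at 11209.2, 2915 and 259 CPM. Its excitatory cortical neuron marker sum was the lowest of the 12, at 5021 CPM. The part of tissue makeup in the clock gene values of ISP 18 was not tested.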

How the results depend on the processing

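In ISP with Veh, edgeR called 0 genes; DESeq2 called 405 genes and 2 of the clock genes, and with 1 library left out edgeR called 0 to 72 genes (72 without Veh 6) and 0 of the clock genes. In Veh with control, 337 genes were called, 510 with no filter, 1133 by DESeq2, 28 with all 12 libraries in 1 fit, 18 at an adjusted p of 0.05 and 0 to 461 with 1 library left out (0 without control 21, 6 without Veh 2 or control 36). Of the 10 clock genes 4 were called there, 0 with all 12 libraries, 0 at 0.05 and 0 to 4 with 1 library left out. In ISP with control, 1547 genes were called, 90 without ISP 14 and ISP 18, 691 at 0.05 and 420 to 2283 with 1 library left out (420 without ISP 14). The clock genes called there were 1, 0 without ISP 14 and ISP 18, and 1 to 2 with 1 library left out, the second being Arntl without ISP 16. Signs turned for Arntl in ISP with Veh (0.0318 without ISP 14 and ISP 18), Ciart in ISP with Veh (-0.41 without ISP 18 to 0.0052 without ISP 16), Nr1d1 in ISP with control (-0.0045 with the GC and length offset) and Ciart in ISP with control (-0.10 without ISP 18 to 0.31 without ISP 16, and -0.12 without ISP 14 and ISP 18), none of them called. The likeness of Ciart with Dbp was 0.90 without subtracting group means and 0.86 to 0.95 with 1 library left out, and that of Dbp with Arntl -0.60 to 0.0062, which was 0.0062 without ISP 18, an alternative chosen after the data were seen. Single-gene values kept their direction and side of the threshold in 166 of 170 settings for ISP with Veh, 136 of 160 for Veh with control (24 lost the call) and 165 of 170 for ISP with control. A gene that was not called and stayed so counts as kept here. The 24 lost calls all fell on the 4 clock genes called in Veh with control, and the 136 include every setting of the genes not called there. In ISP with Veh edgeR called none of the clock genes, so no call could be lost. The causes were not tested, beyond the smaller number of libraries where 1 is left out. No paired analysis was possible because the groups share no replicate numbers.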
